A study of Mus musculus with 4 samples.

Results

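The genes named Zfp followed by a number encode zinc finger proteins. Their DNA was compared between the intestines of young and old mice. Members were all autosomal probes whose gene name, after shared names were split at the hyphen, was Zfp with a number and at most 1 further letter. This rule used no measured value. It gave 215 genes with 1151 of the 79904 autosomal probes. Probes of 1 gene name at most 1000 bp apart were joined into a region, and 272 of 18492 autosomal regions were Zfp regions. Of these, 206 had at least 2 usable probes and are called measured here; they belong to 186 genes. Another 61 regions had 1 usable probe and 5 had none, and 29 genes were covered by single usable probes only.

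Genomic DNA came from intestine of C57BL/6 mice aged 3 months, labelled with Cy3 (green), and 32 months, labelled with Cy5 (red). Which part or layer of the intestine was used is not stated in the sample labels. Each age was hybridised once to each of 2 tiling arrays. The first array carries chromosomes 1 to 8 and the second chromosomes 9 to 19, X and Y, so the arrays are not replicates of each other. As neither age was repeated on an array and dyes were not swapped, no test across animals could be made, and dye and age cannot be told apart. How many animals made up a sample, and of which sex, is not given in the sources used here. The series is recorded as methylation profiling, and the letters RMCA stand unexplained in a header of array 1. How methylated DNA was enriched is likewise not given, so values are described as signal and not as a methylation level. All positions are those in the files, whose build no source used here names.

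Most Zfp proteins bind DNA through tandem zinc fingers of the C2H2 kind, while some have other fingers or domains, such as the RNA-binding fingers of Zfp36. Many carry a KRAB domain, which recruits the co-repressor Trim28 and with it the histone methyltransferase Setdb1, heterochromatin proteins and DNA methyltransferases. KRAB zinc finger proteins silence retroelements and maintain imprints. Other Zfp genes encode neural regulators, general promoter factors or RNA-binding proteins. Zfp genes often lie in tandem clusters, and many names on the arrays are old. Of the 215 names, 190 are current symbols in RefSeq (GRCm38.p6) and 25 were matched to a newer symbol, 19 of them outside the Zfp root, such as Zfp238 (now Zbtb18), Zfp206 (Zscan10) and Zfp496 (Zkscan17). For 213 of the 215 genes the files and RefSeq give the same chromosome. The exceptions are Zfp469, whose probes lie on chromosome 5 while RefSeq places that symbol on 8, and Zfp617, which has probes on both 1 and 8. The identity of the Zfp469 probes is therefore unsettled.

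The sequences below are the probes of the 3 regions that passed the call used throughout: a median log2 ratio of 32 over 3 months of at least 1 (2-fold) in size, and no usable probe of the opposite sign. They are printed 5′ to 3′ as in the files, with each CpG dinucleotide, the site of DNA methylation, in capitals. All 3 regions lie on chromosome 7. Of the 1151 member probes, 185 were found in RefSeq promoter windows (250 bases before to 50 after a gene start), every one on the plus strand of the assembly, on the chromosome given in the files, and none at the same position as in the files.
Zfp536 called region, chr7:37481193-37481252: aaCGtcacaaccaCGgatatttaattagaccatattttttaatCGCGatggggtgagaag
Zfp536 called region, chr7:37481308-37481352: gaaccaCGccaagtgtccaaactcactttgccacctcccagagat
Zfp536 called region, chr7:37481510-37481569: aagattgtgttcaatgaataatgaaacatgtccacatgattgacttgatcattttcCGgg
Zfp536 called region, chr7:37481756-37481808: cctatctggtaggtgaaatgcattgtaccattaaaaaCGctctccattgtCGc
Zfp536 called region, chr7:37481976-37482035: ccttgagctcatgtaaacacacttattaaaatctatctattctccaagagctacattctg
Zfp536 called region, chr7:37482186-37482245: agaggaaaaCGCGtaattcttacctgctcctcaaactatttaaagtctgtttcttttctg
Zfp536 called region, chr7:37482365-37482417: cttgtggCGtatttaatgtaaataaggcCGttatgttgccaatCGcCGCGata
Zfp536 neighbouring region, chr7:37478580-37478628: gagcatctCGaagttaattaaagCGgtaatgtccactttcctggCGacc
Gemin7/Zfp296, chr7:18735635-18735680: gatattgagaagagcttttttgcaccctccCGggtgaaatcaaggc
Gemin7/Zfp296, chr7:18735792-18735836: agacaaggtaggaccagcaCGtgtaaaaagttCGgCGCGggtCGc
Gemin7/Zfp296, chr7:18735950-18735996: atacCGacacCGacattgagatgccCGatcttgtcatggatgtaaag
Gemin7/Zfp296, chr7:18736246-18736290: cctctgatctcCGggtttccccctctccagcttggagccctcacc
Zfp710, chr7:79954071-79954123: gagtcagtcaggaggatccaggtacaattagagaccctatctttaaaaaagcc
Zfp710, chr7:79954387-79954446: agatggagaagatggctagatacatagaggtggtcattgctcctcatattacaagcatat
Zfp710, chr7:79954523-79954575: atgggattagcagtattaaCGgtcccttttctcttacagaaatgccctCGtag
Zfp710, chr7:79954701-79954745: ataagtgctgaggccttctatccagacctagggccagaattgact

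Zfp536, a zinc finger protein that restrains neuronal differentiation, was the 1 member called higher at 32 months. Its called region is annotated as promoter and spans 1225 bp at chr7:37481193-37482417. Its 7 usable probes had processed signals at 3 months of 550, 1880, 165, 289, 967, 3180 and 369, in order along the chromosome. At 32 months the same probes had 9700, 23700, 9930, 9440, 11700, 23000 and 585. In the first 6 probes every 32-month signal lay above every 3-month signal, and the last probe was low at both ages. The median log2 ratio over the 7 probes was 3.65 ± 1.67 (SD over probes of 1 array). The third probe, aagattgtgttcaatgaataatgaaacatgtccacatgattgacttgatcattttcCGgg with 1 CpG, rose most, with a log2 ratio of 5.91. The fifth, which holds no CpG, was at 3.59, and the last, with 5 CpG, at 0.66. Among these probes the ratio did not follow the number of CpG in the probe itself. Under another background correction, normexp, the region was still called higher, with a median of 3.19 and a highest probe of 3.52.

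The other measured region of Zfp536, at chr7:37478367-37479030, ends 2163 bp before the called region begins and did not share this difference. Its 4 probes had 2010, 2420, 200 and 9140 at 3 months and 2180, 1960, 180 and 7260 at 32 months. The median log2 ratio was -0.23 ± 0.21 (SD over 4 probes), or 0.12 under normexp. The probe of 2420 and 1960, shown above as the neighbouring region, matched the RefSeq promoter window of Zfp536 at chr7:37769820-37769868 (GRCm38.p6, plus strand; the gene is on the minus strand), beginning 116 bases before the gene start. On the positions of the files, the called region lies 2613 to 3837 bp from that probe on the upstream side. The signal at the matched gene start thus stayed within 1.24-fold while the upstream region was 12.6-fold higher at the median. Between the 2 regions the difference in median log2 ratio was 3.88, the largest among the 15 names with 2 measured regions.

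Zfp296, a factor of pluripotent and germ cells, shares a probe name with Gemin7, part of the SMN complex that assembles spliceosomal snRNPs. Of the 2 measured regions of this name, the one at chr7:18735635-18736290 was called lower at 32 months. Its 4 probes had 325, 22300, 36300 and 18300 at 3 months and 227, 4760, 3940 and 16200 at 32 months. The central pair fell 4.70-fold and 9.24-fold, while the fourth probe, also bright at 3 months (18300), was 1.13-fold lower. The median log2 ratio was -1.38 ± 1.43 (SD over 4 probes), midway between the first and second probes. Under normexp the region was no longer called (-0.85, with 1 probe above 0). Matched to RefSeq, the first probe begins 174 bases before the Zfp296 start and the second begins 17 bases before it and crosses it. The less bright measured region of the same name, from position 18731940, had signals of 811, 2250 and 271 at 3 months and 865, 1180 and 163 at 32 months. Its median log2 ratio was -0.13 under normexp and -0.74 ± 0.54 (SD over 3 probes) without it, with 1 probe above 0. That probe (811 and 865) was matched to the Gemin7 start in RefSeq, beginning 119 bases before it.

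Zfp710 was the other member called lower, in a region inside the gene at chr7:79954071-79954745. Its usable probes had 331, 2850, 835 and 2620 at 3 months and 252, 957, 97.1 and 1540 at 32 months. Each probe was lower at 32 months, the third, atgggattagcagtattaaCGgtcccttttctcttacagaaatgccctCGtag with 2 CpG, by 8.63-fold. The median log2 ratio was -1.17 ± 1.20 (SD over 4 probes). The call ended when dim probes were kept (-0.58) and under normexp (-0.44).

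**Figure D1:**
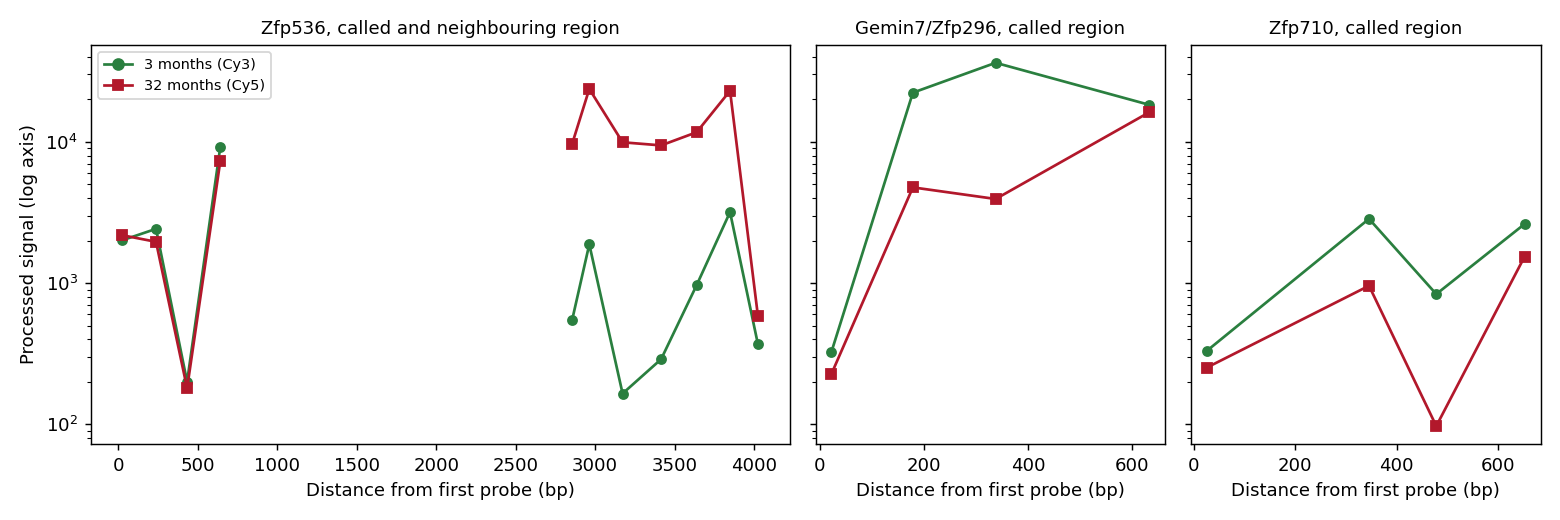
Processed signal (log axis) against distance in bp from the first probe for both measured Zfp536 regions and the called Gemin7/Zfp296 and Zfp710 regions. Each point is 1 probe, green circles 3 months and red squares 32 months; in Zfp536 the curves lie together in the first 4 probes and part in 6 of the next 7.

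Beyond these, 203 of the 206 measured Zfp regions were not called. The 1 region called higher is 0.485% of the measured members, against 2.05% of all 14835 autosomal regions. The 2 called lower are 0.971%, against 0.519%. These are counts of 1 and 2 regions, and nothing particular to the family is read from them. The median log2 ratio over the 206 regions was 0.011, against 0.017 over all autosomal regions. A ratio above 0 was found in 107 of them, 51.9% against 52.6% of all. Within a region the probes were mostly split: 169 regions had usable probes on both sides of 0, 82.0% against 72.4% of all regions, with a median of 4 usable probes per region in both sets. In DNA of intestine, a shift in the mixture of cell types and a change within cells cannot be told apart.

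**Figure D2:**
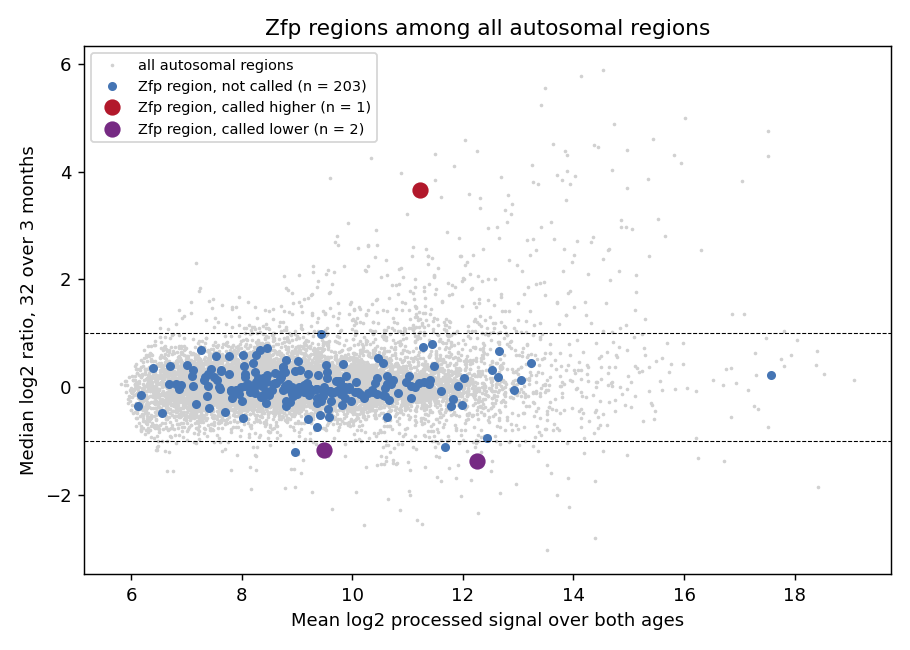
Median log2 ratio of each region (32 over 3 months) against its mean log2 processed signal over both ages; grey points are all 14835 autosomal regions, coloured points the 206 Zfp regions, dashed lines the 2-fold limits. Of the Zfp regions, 203 are not called, 1 is called higher and 2 are called lower.

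Some regions passed 2-fold in size but held a probe of the opposite sign. The shared start of Zfp661 and Mrps5, a mitochondrial ribosomal protein gene, on chromosome 2 had a median log2 ratio of -1.20. Its probes had 1210, 1820, 1050, 56.6 and 1180 at 3 months and 529, 748, 141, 68.2 and 1570 at 32 months. The first 3 neighbouring probes were all lower and the last 2 slightly higher. With dim probes kept the median was 0.0052, and under normexp it was -0.40. A single probe inside Zfp661 next to them went from 1520 to 323. Zfp472 on chromosome 17 had a median of -1.11, with 549, 13900, 48100, 72000 and 183 at 3 months and 682, 5840, 5850, 9640 and 133 at 32 months. There the 3 bright probes were lower and the dim outer ones changed little, 1 of them upward (0.45). Under normexp the Zfp472 median was -0.19. The called Zfp710 region (-1.17) lay just past the 2-fold limit. Just short of it lay Zfp653 (0.99, probes of 1780 and 5250 and of 147 and 163) and the region named Zfp469 (-0.95).

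Single probes past 4-fold showed the same local pattern. Of 871 usable member probes, 12 (1.38%) were at least 4-fold higher, against 2.00% of all usable autosomal probes, and 13 (1.49%) were at least 4-fold lower, against 0.391%. Probes of 1 region are not independent, and the 13 lower ones came from 8 regions. Of these 13, 9 stood next to another such probe, in 4 regions. At least 1 CpG was in 12 of the 13 lower and 8 of the 12 higher probes, beside 71.2% and 73.3% of all autosomal probes past 4-fold and 63.6% of usable member probes. The 3-month signals of the 13 lay between 835 and 72000 and their 32-month signals between 97.1 and 9640; choosing probes by a lower 32-month signal favours those bright at 3 months.

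In the region named Zfp469, 3 neighbouring probes went from 14800, 29200 and 5620 to 2090, 6810 and 1110, while the next 3 went from 10300, 2340 and 2520 to 11900, 4000 and 7390. The region is thus lower over its first part and higher over its last. In Zfp496, a KRAB zinc finger gene whose product binds the histone methyltransferase Nsd1, the pair of bright promoter probes went from 29500 and 19900 to 5750 and 3580. The other 3 Zfp496 probes were dim (77.6, 88.2 and 125 at 3 months) and read 208, 154 and 151 at 32 months. In Zfp641 the 1 bright probe went from 44900 to 8460.

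The 12 higher probes included 6 of Zfp536 and 1 in each of 6 other regions. Zfp367-Habp4 held a probe that went from 8890 to 55200 and Zfp385 one that went from 4670 to 21700. The Zfp385 probe beside it read 57700 and 155000 (log2 ratio 1.56), and the next 3 read 24200, 11400 and 218 at 3 months and 21100, 11400 and 154 at 32 months. Zfp354a had 1 probe at 373 and 3590, and Zfp521 1 at 141 and 1960. The Zfp423 probe went from 3290 to 14800 while another in its region went from 62500 to 38900. The sixth, in Zfp397, read 67.8 and 264 and was not well above background at 3 months.

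Among genes with roles in silencing retroelements and imprints, none was called. Over all autosomal regions 2.05% were called higher and 0.519% lower, and nothing is read from the calls in this and the following role lists. Of 10 listed names 5 had probes and 4 were measured, with region medians from 0.0046 to 0.24 (log2). Zfp57, which keeps methylation at imprinted loci, had a log2 ratio of 0.24 ± 0.79 (SD over 8 probes) and median signals of 141.5 at 3 months and 182.5 at 32 months. Zfp445, a second imprint regulator, had 0.23 ± 0.27 (SD over 4 probes), with medians of 252 and 268. Zfp809, which represses retroviral sequences in embryonic cells, had 0.071 ± 0.38 (SD over 3 probes), with 484 and 625. Zfp708 had 0.0046 ± 1.01 (SD over 3 probes), with 144 and 190. All 4 lie on array 2, where the median signals of all autosomal regions were 334 and 338: Zfp809 was brighter and the other 3 dimmer. They lay above 0 by less than their spread between probes, and the median over all regions of array 2 was 0.088. Zfp57 was below 0 with dim probes kept (-0.047), and Zfp809 and Zfp708 were below 0 without centring (-0.069 and -0.13).

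Neural and developmental regulators held the called Zfp536 region. Of 13 listed names, among which Zfp191 and Zfp24 are the same gene, 7 were measured. They gave 9 regions with a median log2 ratio of 0.32, and 7 of the 9 were above 0. Zfp503, active in striatal and limb development, reached 0.80 ± 0.80 (SD over 9 probes), with 3-month signals of 7200, 14300, 5570, 5500, 585, 325, 1840, 2830 and 820. At 32 months its probes read 11900, 24200, 8740, 2090, 1080, 875, 1880, 3070 and 1300, so 8 of 9 were higher and 1 was lower. Zfp191 (now Zfp24), needed for myelination, had 0.60 ± 1.04 (SD over 5 probes), and Zfp238, a repressor in brain development, 0.34 ± 0.43 (SD over 6 probes). Under normexp both were slightly below 0 (-0.051 and -0.026). Zfp219, a partner of Sox9 in cartilage, had 0.28 ± 0.47 (SD over 4 probes). Zfp423, a cofactor of Ebf1 in neural and fat cell development, had 0.32 ± 1.45 (SD over 3 probes). Zfp521, its close relative, was the brightest member region of all, with probe signals from 99900 to 384000 at 3 months and from 94700 to 476000 at 32 months. Its log2 ratio was 0.22 ± 0.24 (SD over 6 probes), and that of its second, dim region was -0.15 ± 1.74 (0.47 as a mean over probes).

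Pluripotency and germ cell genes were measured in 8 of 10 listed names and 9 regions, of which 4 were above 0 and 1, Gemin7/Zfp296, was called. Zfp42 (Rex1), a marker of embryonic stem cells, had -0.078 ± 0.40 (SD over 5 probes), with median signals of 382 and 345. Zfp206, an embryonic stem cell factor that shares its region with Zfp13, had 0.046 ± 0.77 (SD over 3 probes). Zfp281, a GC-box binding factor, was bright, at -0.054 ± 0.29, with probes of 4320, 17700 and 6270 at 3 months and 5280, 17100 and 5130 at 32 months. Zfp322a and Zfp105 had 0.15 ± 0.24 and 0.12 ± 0.30. Zfp37, a testis gene, had -0.55 ± 0.23 from only 2 probes, 1 bright (32900 and 25100) and 1 dim (112 and 68.5).

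The list drawn up for general promoter and enhancer factors also holds proteins described below by other roles. It was measured in 7 of 9 listed names and 8 regions, of which 2 lay above 0 and none was called. Zfp281 is counted both here and among the pluripotency genes, and Zfp57 both among the silencing and among the pluripotency genes. Zfp143, which binds many promoters, had 0.017 ± 0.19 (SD over 4 probes), with median signals of 2560 and 2440. Zfp148, a factor that binds GC-rich promoter elements, had the lowest value, -0.56 ± 0.70, from a dim probe (139 and 60.9) and a bright one (6840 and 5960). Zfp207, a spindle assembly protein, had -0.25 ± 0.056 inside the gene and -0.35 ± 0.19 in the start region shared with 5730455P16Rik, each over 2 probes. Zfp64 had -0.10 ± 0.14 (SD over 3 probes) and Zfp91, a ubiquitin ligase sharing its region with Lpxn, -0.027 ± 0.40. Zfp110, a neurotrophin receptor interactor, had 0.30 ± 0.26 (SD over 4 probes). Under normexp Zfp148, both Zfp207 regions, Zfp64 and Zfp281 were above 0 (0.18, 0.20, 0.057, 0.13 and 0.33). RNA-binding members gave 5 regions, none called. Zfp36 (tristetraprolin), which destabilises cytokine mRNAs, had -0.17 ± 0.26, Zfp598, a sensor of collided ribosomes, -0.29 ± 0.35, and Zfp326, Zfp106 and Zfp318 -0.21, -0.062 and 0.098. Of these, Zfp106 alone kept its sign under normexp.

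Partners of the KRAB domain showed no called region in 16 measured (13 of 17 listed genes), with a median log2 ratio of 0.039. Trim28 itself had -0.21 ± 0.14 (SD over 4 probes), with median signals of 1760 and 1384.5 (3 and 32 months). Dnmt3a, a de novo DNA methyltransferase, held the highest value, 1.22 ± 1.60 (SD over 4 probes), uncalled because 1 probe was at -0.80. Among other zinc finger families, none of 28 Zbtb, 2 Zscan and 1 Zkscan regions was called, beside 2.05% of all autosomal regions called higher and 0.519% lower, and the Zbtb median was 0.018. Genes that mark the cell types of the intestinal wall gave medians of 0.083 for epithelium (8 regions), 0.010 for immune cells (12), 0.11 for smooth muscle (6) and 0.053 for enteric neurons and glia (5), with no call in any list. As DNA and not RNA was measured, these values name no cell type, and their part in the Zfp values was not tested.

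Zfp genes were unevenly placed. Chromosome 7 held 55 of the genes, 282 of the probes and 50 of the 206 measured regions, 4.10% of all its measured regions and including all 3 called ones. Chromosome 13 followed with 19 regions (3.45%) and 17 with 18 (2.40%), while chromosomes 10 and 19 had 1 each. The median log2 ratio of Zfp regions was -0.015 on chromosome 7 against -0.038 for all its regions, 0.094 on 13 against 0.051, 0.094 on 11 against 0.11 and 0.066 on 17 against 0.084. On chromosome 4 all 7 Zfp regions were below 0, from -0.55 to -0.012, with a median of -0.18 against -0.034. Of all regions of that chromosome 42.4% were above 0, and nothing is read from these 7. Levels differed between arrays in the same way for members and for all regions: the member median was -0.050 for array 1 and 0.095 for array 2, and those of all autosomal regions were -0.032 and 0.088. A difference between chromosomes of different arrays is therefore not read as one of the Zfp genes.

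**Figure D3:**
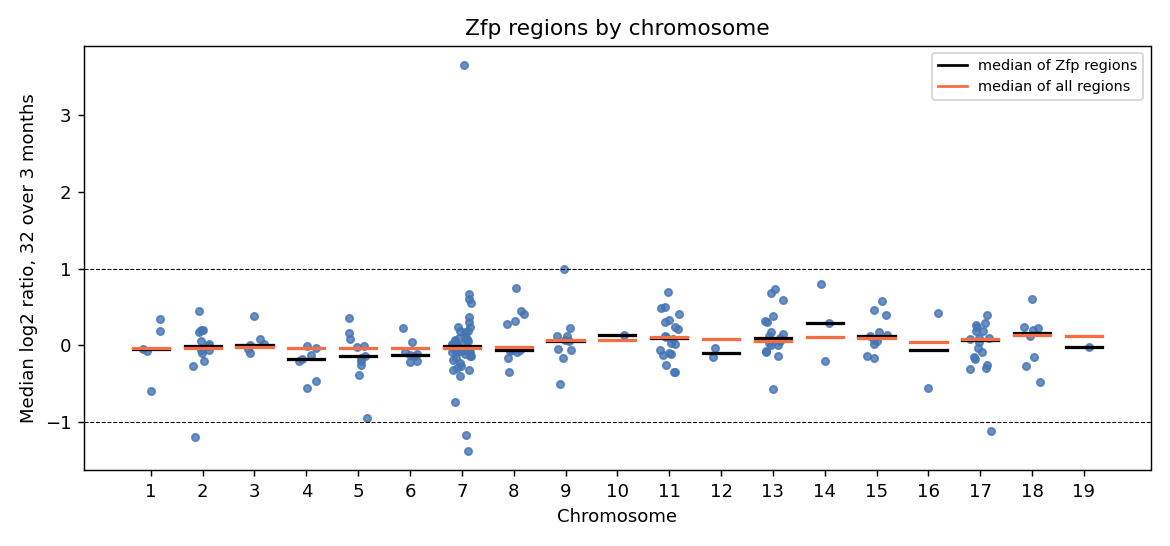
Median log2 ratio (32 over 3 months) of each measured Zfp region (points) by chromosome, with the median of the Zfp regions (black) and of all regions (orange); dashed lines mark 2-fold. The 3 called regions are among the 50 points on chromosome 7, where the medians are -0.015 and -0.038.

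Of the 215 genes, 98 lay in 18 clusters of at least 3 Zfp genes with neighbours at most 500000 bp apart, and 117 lay outside. The cluster at chr5:143082341-143535922 reaches 3 genes only with Zfp469, whose identity is unsettled. None of the 86 measured regions in clusters was called and 3 of the 120 outside were, beside 2.05% of all autosomal regions called higher and 0.519% lower, so nothing is read from this split. Cluster and non-cluster regions had medians of -0.015 and -0.058 on array 1 and of 0.091 and 0.096 on array 2. The largest cluster, 14 genes at chr7:23789904-24930448 that include Zfp108 and Zfp112, had 9 measured regions between -0.19 and 0.67. Its top value was Zfp112, where probes of 27300 and 20100 at 3 months read 43600 and 32100 at 32 months, beside a dim probe of 329 and 281. The chromosome 13 cluster, 10 genes at chr13:67580325-68313219 with Zfp708 and Zfp457, was dim (median region signals of 210.5 and 177.5) and spanned -0.15 to 0.58.

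Probes with more CpG were brighter. Median 3-month signals of usable member probes were 313 for probes without CpG, 456 with 1, 560.5 with 2, 1245 with 3, 1510 with 4 and 1475 with 5 or more. All autosomal probes ran alongside, from 312 to 1330. The share of usable probes rose from 64.7% without CpG to 95.2% with 3. Across the 206 regions, Spearman's rho of mean CpG count with brightness was 0.31 (0.28 over all regions), 0.34 on array 1 and 0.26 on array 2, and of GC content with brightness 0.56 (0.60). These are descriptions across regions of the same arrays, in which CpG count and base composition go together. With the ratio, rho of mean CpG count was 0.011 for array 1 and 0.36 for array 2, against 0.059 and 0.15 for all regions; on array 2 it was thus above that with brightness.

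By mean CpG count of the probes, 170 Zfp regions were under 2, 34 were from 2 to under 4, and 2 were from 4 to under 6. Their median log2 ratios were -0.0039, 0.061 and 0.23, against 0.0071, 0.065 and 0.19 for all autosomal regions of the same class. Median region signals of the members were 458 and 426 (3 and 32 months) in the lowest class and 1270 and 1958.5 in the middle one. Zfp710 lies in the lowest class and the other called regions in the middle one. The probes, of 45 to 60 bases, held a mean of 1.22 CpG over Zfp regions and 1.09 over all autosomal regions. In RefSeq, 223 promoter windows of 170 member genes had a median of 17 CpG in 300 bases. The median was 7 over 31396 windows of 25748 autosomal RefSeq genes, a set not limited to genes measured here.

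**Figure D4:**
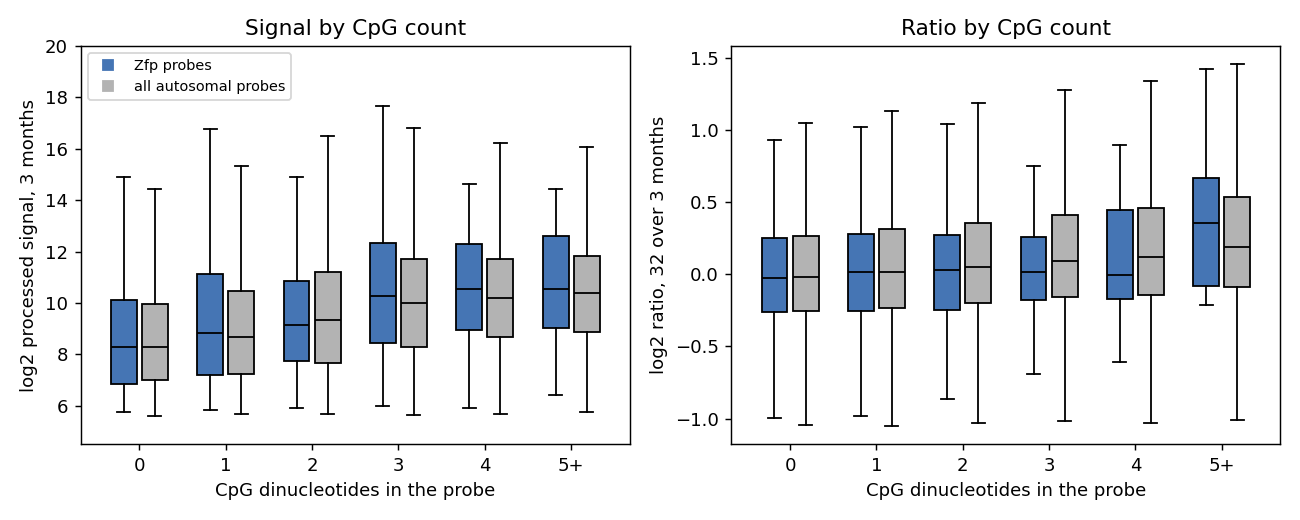
Log2 processed signal at 3 months (left) and log2 ratio of 32 over 3 months (right) of usable probes by the number of CpG in the probe, for Zfp probes (blue) and all autosomal probes (grey); boxes are quartiles with the median, whiskers reach the last value within 1.5 times the quartile range. Median signal of Zfp probes goes from 313 without CpG to 1475 with 5 or more, while the median ratio stays near 0 up to 4 CpG.

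The brightest 5% of autosomal regions on each array held 9 members (4.37% of the 206): Zfp281, Zfp469, Gemin7/Zfp296, Zfp112, Zfp768, Zfp319, Zfp423, Zfp385 and Zfp521. After Zfp521, the brightest was Zfp319, with probes of 14900 and 4550 at 3 months and 13700 and 9190 at 32 months. The dimmest 5% held 5 members (2.43%), among them Zfp62 (median region signals of 83.25 and 59.25), Zfp160 (83.25 and 66.7) and Zfp68-A430033K04Rik (75.25 and 102.4). Ratios of such regions rest on signals close to background and were -0.35, -0.15 and 0.36. The name shared by Zfp566 and Zfp260 on chromosome 7 had the next largest difference between 2 measured regions after Zfp536, 0.74, between -0.14 and 0.60. The second value came from probes of 1290, 105 and 136 at 3 months and 1140, 186 and 207 at 32 months.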

How the data were processed

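The members, lists and rules were chosen with earlier results of these data known. DNA from intestine of C57BL/6 mice was hybridised to 2 arrays, 1 sample per age on each, and 4 sample records describe their dyes; the 2 scanner files of an array are identical and were used once. Per the submitters' processing notes, Agilent Feature Extraction 9.1.3.1 read the images. Analysed here were the deposited processed intensity values, which per the file headers were background-subtracted, detrended and scaled linearly between dyes without lowess. The authors' value table equals them in 100% of spots.

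For each probe, the log2 ratio of red over green was computed from the deposited intensities and centred on the array's median (0.0044 and -0.14 before centring). Usable probes carried no outlier flag and stood well above background in 1 channel or both; these were 75.7% of member probes and 75.5% of all autosomal ones; no probe was saturated. Median spot signals at 3 and 32 months were 113 and 203 for array 1 (negative controls 80 and 107) and 71.8 and 135 for array 2 (61.7 and 107). A region's value is the median of at least 2 usable probes, with the SD over probes, which measures neither animals nor arrays; the number of arrays limits the precision. Members on X and Y (5 genes) were left out. Named are called regions, those past the threshold uncalled, the 3 brightest and 3 dimmest, the 3 genes with the largest difference between regions and all members of role lists; other probes and regions in the text were chosen after their values were seen. The caller was tested on simulated data. Python 3.11.15, pandas 2.3.3, R 4.3.3 and limma 3.58.1 were used; matches to RefSeq used GRCm38.p6 tables.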

Additional observations from a re-analysis of the deposited data

How the results depend on the processing

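No paired analysis was possible because each age has 1 sample per array. Zfp536 was called higher under all 12 alternatives and Gemin7/Zfp296 lower under all but normexp background correction. The authors' value table equals the values used, and a 1.5-fold limit keeps every 2-fold call, so neither could end a call. All 7 Zfp536 probes were well above background at both ages. Keeping dim probes, requiring both channels or requiring at least 3 usable probes therefore could not change its value. Normexp gave 3 regions called higher (Zfp536, Zfp521, Zfp653), 0 lower and a median of 0.11, which is also the median of all autosomal regions there, with 2.82% of all regions called higher and 0.0539% lower; the cause was not tested. Without centring the median was -0.045 (all regions -0.036). Keeping dim probes left 1 region called lower, Gemin7/Zfp296, since the dim Zfp710 probes lie near 0. Probes well above background in both channels gave 2 called higher (Zfp96 added), as did the mean over probes (Zfp354a added). Chosen after seeing the data, a 1.5-fold limit gave 3 higher (Zfp2 and Zfp653 added) and 3 lower (Zfp142 added), a gap of 500 bp gave 3 lower (the shared Zfp661 region added), and centring on autosomal probes changed no count. Loess, removal of block medians and at least 3 usable probes changed no count either, and the authors' value table, holding the same values, could not. For the 45 named regions the alternatives gave 479 values: 457 kept their call and lay within the spread between probes, 16 moved further, 3 passed the limit and 3 no longer did. The 457 include 45 from the authors' value table, which were fixed in advance. They also include 44 from the 1.5-fold limit, which leaves every median unchanged. No called region changed sign, but the sign of uncalled medians turned in 39 values, 15 of them under normexp. Signal over background limits regions such as Zfp62 and Zfp160, and 1 sample per age limits all.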
